A study of Mus musculus with 6 samples.

Results

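The genes described here mark the oligodendrocyte lineage, the glial cells that make the myelin sheath of the central nervous system. All 31 genes of the set were found among the 14250 rows of the deposited table by their symbol, and all 31 entered the test. They were divided by stage into 4 precursor genes, 5 genes of committed precursors and newly formed oligodendrocytes, 3 transcription factor genes used throughout the lineage, and 19 genes of mature, myelinating cells. The RNA was that of C57BL/6 mice, from the anterior cingulate cortex (ACC). The LPS group, 3 mice, had received lipopolysaccharide, a bacterial endotoxin, at 50 µg per kg by intraperitoneal injection on postnatal day 14, and the Saline group, 3 mice, had received pyrogen-free saline on that day. Tissue of both groups was taken on postnatal day 45 after perfusion and dissected by hand, with 1 mouse per library. The labels name no transgene, do not give the sex or litter of each mouse, and do not say how much of the white matter beneath the cortex was included. The LPS libraries held 36168687 to 41270737 counts and the Saline libraries 37416194 to 39804999.

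Oligodendrocyte precursors carry the PDGF receptor and still divide in the adult cortex. Some of them commit, pass through a short stage marked by the receptor gene Gpr17, and become myelinating cells that wrap axons in a membrane rich in cholesterol and galactolipids. The transcription factors Olig2, Olig1 and Sox10 act along the whole lineage, and Myrf switches on the genes of mature myelin. In rodents myelin is still being added to the frontal cortex during adolescence.

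The promoters of 3 genes are printed because they are the ones in the promoter table among the 7 genes of the set with an unadjusted p under 0.05. They are RefSeq windows of GRCm38.p6 from 250 bases before to 50 bases after the start, 5′ to 3′ on the strand of the gene, and capitals mark matches to the motifs given next.
Pdgfra, chr5:75152001-75152300, plus strand: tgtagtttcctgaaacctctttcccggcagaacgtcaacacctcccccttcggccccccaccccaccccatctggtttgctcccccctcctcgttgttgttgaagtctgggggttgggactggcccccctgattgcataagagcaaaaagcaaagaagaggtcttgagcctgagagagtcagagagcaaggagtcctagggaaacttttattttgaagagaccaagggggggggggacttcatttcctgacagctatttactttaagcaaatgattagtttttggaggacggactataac
Ermn, chr2:58052815-58053114, minus strand: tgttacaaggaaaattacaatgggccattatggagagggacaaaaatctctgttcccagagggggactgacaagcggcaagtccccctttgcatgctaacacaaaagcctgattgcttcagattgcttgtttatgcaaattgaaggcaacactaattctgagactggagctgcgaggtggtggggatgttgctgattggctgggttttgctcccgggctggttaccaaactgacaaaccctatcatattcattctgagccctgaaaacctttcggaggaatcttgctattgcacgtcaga
Hapln2, chr3:88027462-88027761, minus strand: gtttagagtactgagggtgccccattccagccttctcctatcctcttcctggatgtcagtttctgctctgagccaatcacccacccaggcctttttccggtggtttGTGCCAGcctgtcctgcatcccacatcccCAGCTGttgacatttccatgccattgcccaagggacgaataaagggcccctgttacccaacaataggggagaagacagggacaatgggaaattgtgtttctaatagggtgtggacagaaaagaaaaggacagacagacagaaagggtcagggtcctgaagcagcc
The motifs were ACAAAG for Sox factors, CAGCTG for E-box factors such as Olig2 and CTGGCAC for Myrf, searched on both strands with overlaps allowed. They occurred in 18.7%, 16.3% and 5.01% of all 32851 windows. In the 27 windows of the 21 genes of the set that the table held, they occurred in 8, 4 and 5. Those windows belonged to 6, 4 and 4 genes, since some genes have several windows, which overlap in Mag. Hapln2 held 1 E-box and 1 Myrf match, and these letters are not in the windows of Ermn and Pdgfra. A match describes the letters only.

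No gene of the set passed the test over the whole table. edgeR's quasi-likelihood test, with Benjamini-Hochberg adjustment over 14250 rows and a threshold of 0.05, called 0 of 31 genes, where it called 41 rows (0.288% of all, with 0.0982% higher and 0.189% lower). DESeq2 called 0 of 31, beside 0.983% of all rows (0.421% higher and 0.562% lower), and limma-voom 0 of 31, beside 0.267% of all rows (0.0982% higher and 0.168% lower). The smallest adjusted p among the 31 was 0.533 by edgeR. At an unadjusted p under 0.05, 7 of 31 were found by edgeR, beside 7.17% of all rows. DESeq2 found 5 of 31 at that level, beside 6.59% of all rows, with 2 higher and 3 lower, beside 3.38% and 3.2%. Of the 7 found by edgeR, Pdgfra, C1ql1 and Gpr17 had higher values in LPS samples, beside 3.63% of all rows, and Sox10, Ermn, Trf and Hapln2 lower values, beside 3.54%. On counts scaled by library size, the LPS and Saline libraries did not overlap in 5 genes, beside 13.7% of all rows. These were 2 with higher values (C1ql1 and Gpr17) and 3 with lower values (Sox10, Ermn and Hapln2) in LPS samples, beside 6.84% of all rows in each direction.

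Levels were compared between genes on the FPKM scale of the authors, which is set per length. Mbp, the gene of myelin basic protein, which holds the membrane layers of compact myelin together, had the highest level of the set at 293 ± 33.4 FPKM in LPS and 304 ± 43.3 FPKM in Saline samples (SD, n = 3 each), and 99.3% of all rows had a lower mean. Mobp, another protein gene of myelin, followed with 175 ± 35.5 FPKM in LPS and 176 ± 31.2 FPKM in Saline samples. Among the early genes Bcas1, a gene of newly formed and early myelinating cells, was the most abundant, at 37.0 ± 4.16 FPKM in LPS and 33.1 ± 6.58 FPKM in Saline samples. Bmp4, which codes for a secreted growth factor made by committed precursors, had the lowest mean over all 6 libraries, at 1.97 ± 0.336 FPKM in LPS and 1.48 ± 0.230 FPKM in Saline samples, although Neu4 was lower within the LPS group, at 1.84 ± 0.197 FPKM in LPS and 2.05 ± 0.357 FPKM in Saline samples. The mature genes took up 0.181% to 0.239% in LPS libraries and 0.175% to 0.237% in Saline libraries of all counts, and the precursor genes 0.0138% to 0.0149% in LPS libraries and 0.0116% to 0.0141% in Saline libraries. The ratio of FPKM to counts, scaled by the library median, departed by over 10% from that of Saline 1 in at least 1 library for 4 of the 31 genes (Neu4, Enpp6, Aspa and Tspan2), beside 21.2% of all rows.

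**Figure D1:**
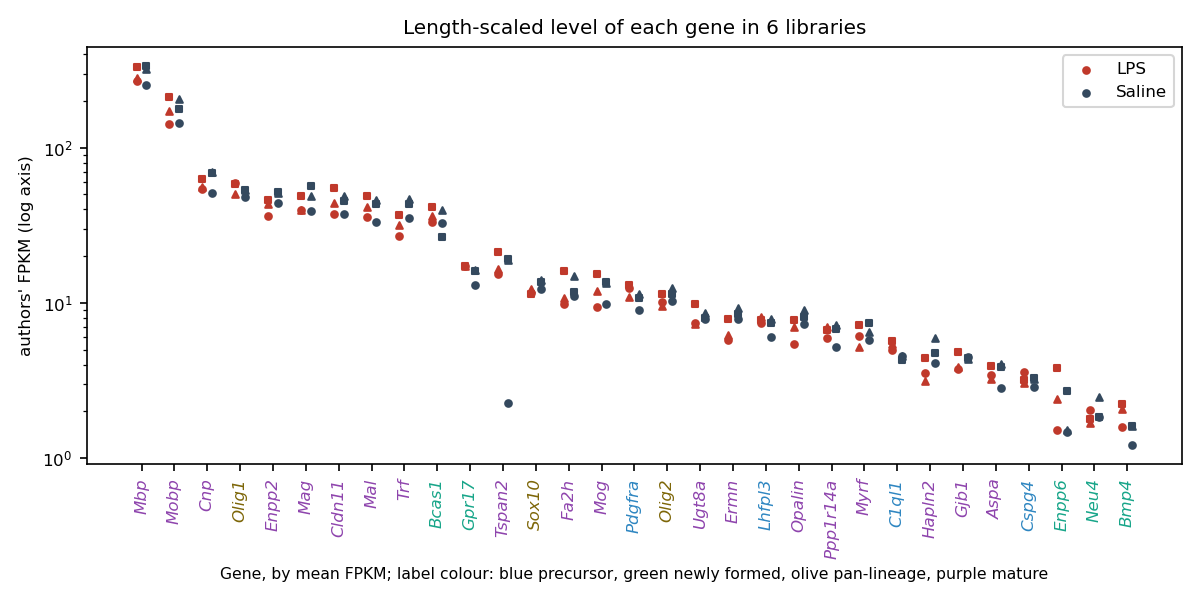
Deposited FPKM of each gene (log axis) in the 3 LPS libraries (red) and 3 Saline libraries (dark blue), ordered by mean level, with label colours for the stage. Mbp and Mobp stand above all others, and the Saline 1 value of Tspan2, at 2.27 FPKM, lies far below the other 5 libraries.

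All 4 precursor genes had positive log2 changes, and none passed the test. Their median was 0.16, beside 0.00 over all rows tested. Pdgfra (chr5:75152292-75198215, plus strand, GRCm38) codes for the receptor through which PDGF drives precursor division. It had 81.5, 89.1 and 76.5 CPM in LPS libraries and 65.5, 70.4 and 79.4 CPM in Saline libraries, in the order of replicates 1, 2 and 3, where CPM are counts scaled to a common library size with TMM factors. The groups overlapped, since Saline 3 lay above LPS 3. The difference was 0.20 ± 0.0843 (log2 change ± SE, adjusted p = 0.694 by edgeR), and leaving out 1 library at a time gave 0.14 to 0.28.

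C1ql1 (chr11:102939264-102946688, minus strand) codes for a secreted C1q-like protein that precursors make. It had 7.94, 9.42 and 8.79 CPM in LPS libraries and 7.60, 6.87 and 7.202 CPM in Saline libraries. Every LPS library lay above every Saline library, with LPS 1 close to Saline 1, and the difference was 0.27 ± 0.115 (log2 change ± SE, adjusted p = 0.696 by edgeR). Lhfpl3, a tetraspan membrane protein gene used as a precursor marker, had 22.5, 24.6 and 24.7 CPM in LPS libraries and 19.6, 22.7 and 23.5 CPM in Saline libraries, and the groups overlapped (0.13 ± 0.0909, log2 change ± SE). Cspg4, the gene of the NG2 proteoglycan found on precursors and pericytes, had 31.2, 29.0 and 27.1 CPM in LPS libraries and 26.3, 28.7 and 28.4 CPM in Saline libraries, also with overlap (0.07 ± 0.0806). In bulk tissue, a change in the number of cells of a type and a change in RNA per cell cannot be told apart.

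Saline 1 was the lowest of the 6 libraries in 3 of the 4 precursor genes. Without it, their median log2 change was 0.0961, Pdgfra was at 0.14 with an adjusted p of 0.885 by edgeR, and 0 genes of the set had higher values at an unadjusted p under 0.05. The share of all rows at that level in this fit is not given here, so the 0 cannot be read against it. Pdgfra and Cspg4 are also used by other cells. All 12 fibroblast markers of meninges and vessels were measured and 0 were at 0. Their summed level was 153 to 250.4 CPM in LPS and 119 to 224 CPM in Saline libraries, lowest in Saline 1. Their median log2 change was 0.32, with 10 positive and 2 negative, from -0.42 to 0.70, where 50.4% of all rows were positive. Fbln1, a matrix glycoprotein gene, stood at 0.40 ± 0.138 (log2 change ± SE, adjusted p = 0.548 by edgeR), the collagen gene Col3a1 at 0.70 ± 0.325 and Dcn, the gene of the proteoglycan decorin, at 0.32 ± 0.358. The 10 mural cell markers, 0 of them at 0, summed to 402 to 465 CPM in LPS and 383 to 436 CPM in Saline libraries. Their median log2 change was 0.06, with 8 positive and 2 negative, from -0.26 to 0.23. Rgs5, a pericyte gene, was at 0.05 ± 0.0660, Ndufa4l2 at 0.21 ± 0.159 and Tagln, a smooth muscle gene, at 0.23 ± 0.177. The part of these cells in the Pdgfra and Cspg4 values was not tested.

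**Figure D2:**
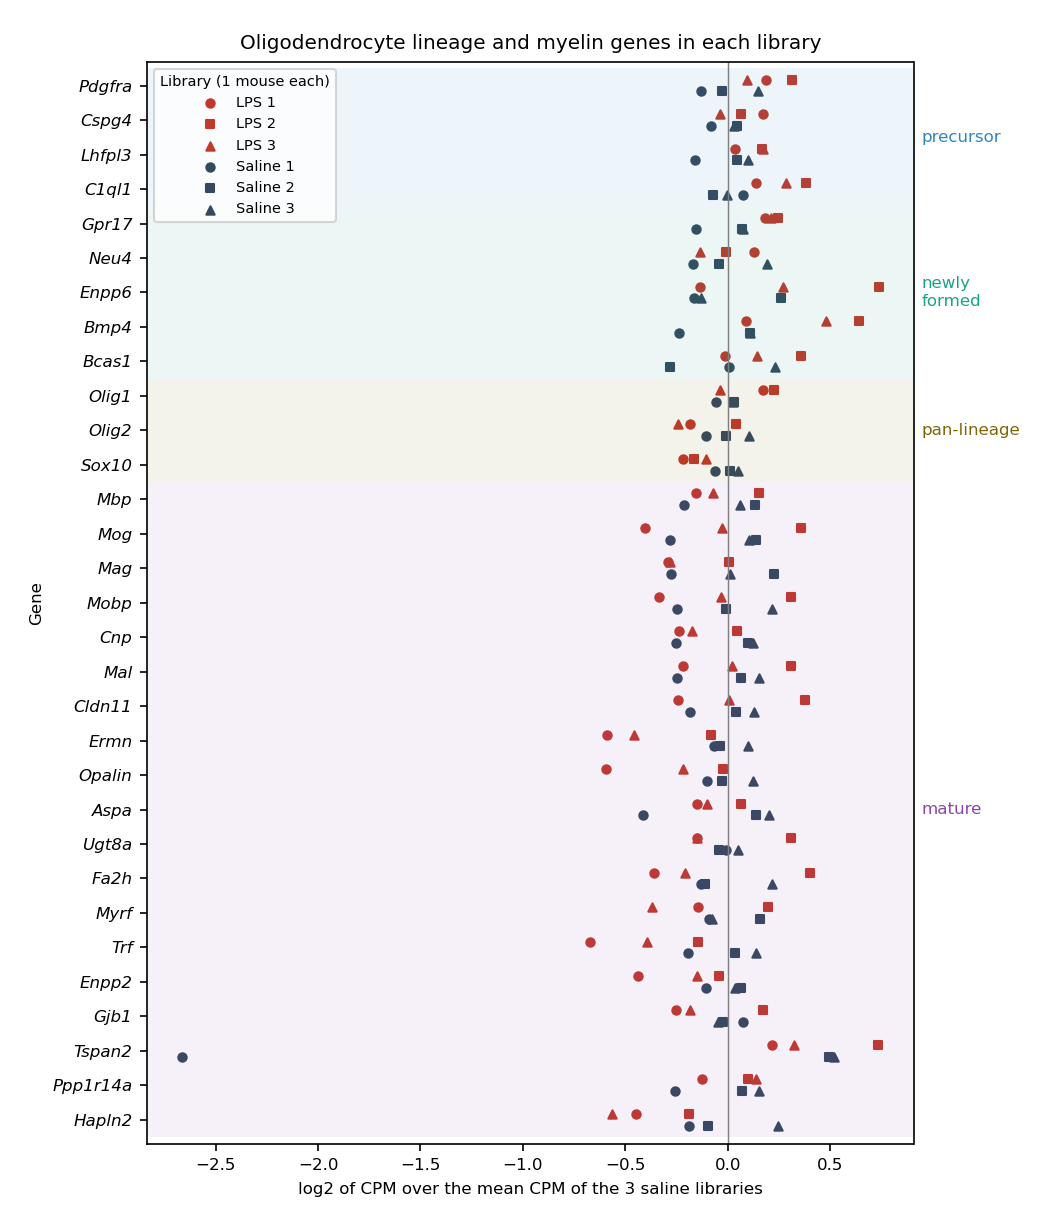
CPM of each gene in each library as log2 relative to the mean of the 3 Saline libraries, LPS in red above Saline in dark blue, with 1 symbol per replicate number and shading by stage. In the precursor stage the Saline 1 point is the lowest in 3 of 4 genes, and in the mature genes LPS 2 is the highest LPS library in 18 of 19.

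Genes of newly formed oligodendrocytes had a median log2 change of 0.21, and none of the 5 passed. Gpr17, an orphan receptor gene that marks the passage out of the precursor stage, had the smallest unadjusted p of the set, 0.0151 by edgeR. It had 96.9, 101 and 98.8 CPM in LPS libraries and 76.7, 89.8 and 90.1 CPM in Saline libraries. The LPS libraries were close to each other and all above Saline, and Saline 1 was again the lowest. The difference was 0.21 ± 0.0715 (log2 change ± SE, adjusted p = 0.533 by edgeR), or 0.14 without Saline 1. On the FPKM scale it was at 17.4 in each LPS library and 13.1, 16.1 and 16.2 in Saline libraries. Exons of Gpr17 share 188 bases with those of Lims2 on the opposite strand, and the labels do not say that counting used strand.

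Bmp4 had 3.55, 5.22 and 4.66 CPM in LPS libraries and 2.83, 3.60 and 3.60 CPM in Saline libraries. LPS 1 lay just below Saline 2 and Saline 3, LPS 2 and LPS 3 lay above all Saline libraries, and the difference was 0.42 ± 0.194 (log2 change ± SE, adjusted p = 0.705 by edgeR). Enpp6, a choline phosphodiesterase gene switched on when precursors begin to differentiate, had 7.18, 13.1 and 9.51 CPM in LPS libraries and 7.02, 9.42 and 7.202 CPM in Saline libraries. LPS 2 stood above the rest, and the log2 change was 0.33 ± 0.230, or 0.0803 without LPS 2. Bcas1 ran from 83.7 to 108 CPM in LPS libraries and from 69.5 to 98.9 CPM in Saline libraries (0.17 ± 0.152). Neu4, a sialidase gene of committed precursors, had 9.66, 8.77 and 8.03 CPM in LPS libraries and 7.86, 8.57 and 10.1 CPM in Saline libraries, with full overlap (-0.00 ± 0.129).

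Among the 3 lineage-wide transcription factor genes the signs went both ways. Sox10 (chr15:79154908-79165240, minus strand), which activates myelin genes, had 33.9, 35.1 and 36.6 CPM in LPS libraries and 37.7, 39.7 and 40.7 CPM in Saline libraries. No LPS library reached the lowest Saline library. The difference was -0.16 ± 0.0685 (log2 change ± SE, adjusted p = 0.694 by edgeR), and -0.19 to -0.14 with 1 library left out. Its within-group spread was narrow, with 88.1% of all rows above it. Olig2, which specifies the lineage, had 27.6, 32.2 and 26.5 CPM in LPS libraries and 29.1, 31.1 and 33.6 CPM in Saline libraries (-0.12 ± 0.0946). Olig1, its neighbour on chromosome 16, had 137, 142 and 119 CPM in LPS libraries and 117, 124 and 124 CPM in Saline libraries (0.12 ± 0.0740). Both overlapped between the groups.

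Of the 19 mature genes 12 had negative and 7 positive log2 changes, where 50.4% of all rows were positive, and none passed. Their median was -0.06. Mbp had 587, 727 and 620.2 CPM in LPS libraries and 563, 716 and 681 CPM in Saline libraries, with full overlap (-0.02 ± 0.111). Among other genes of the myelin membrane, Mobp was at 0.00 ± 0.206, Mog, a surface glycoprotein gene of the outer layer, at 0.01 ± 0.215, Cldn11, the tight junction gene of myelin, at 0.07 ± 0.175, and Mal, a membrane raft protein gene, at 0.05 ± 0.166. Cnp, a nucleotide phosphodiesterase gene of non-compact myelin, was at -0.12 ± 0.118 and Mag, an adhesion gene facing the axon, at -0.18 ± 0.145. Exons of Cnp share 154 bases with Dnajc7 on the opposite strand. The enzyme genes were at 0.02 ± 0.124 for Ugt8a, which makes galactosylceramide, -0.02 ± 0.230 for Fa2h, which hydroxylates its fatty acids, and -0.06 ± 0.177 for Aspa, which cleaves N-acetylaspartate. Myrf was at -0.09 ± 0.147, the gap junction gene Gjb1 at -0.08 ± 0.139 and Ppp1r14a, a phosphatase inhibitor gene, at 0.04 ± 0.147. In all of these the groups overlapped, and the log2 changes were smaller than their SE except in Mag and Cnp.

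Lower values in LPS samples were seen in Ermn, Trf and Hapln2. Ermn (chr2:58045113-58052864, minus strand) codes for ermin, a cytoskeletal protein of mature oligodendrocytes. It had 22.5, 32.1 and 24.7 CPM in LPS libraries and 32.4, 33.0 and 36.2 CPM in Saline libraries. The groups did not overlap, with LPS 2 just below Saline 1. The difference was -0.36 ± 0.128 (log2 change ± SE, adjusted p = 0.579 by edgeR), from -0.25 without LPS 1 to -0.52 without LPS 2, where the adjusted p by edgeR was 0.0961. Trf (chr9:103204001-103230444, minus strand), the transferrin gene, whose iron-carrying product is made by oligodendrocytes in the brain, had 73.3, 106 and 88.9 CPM in LPS libraries and 102, 119.8 and 129 CPM in Saline libraries. LPS 2 lay above Saline 1, and the difference was -0.39 ± 0.152 (log2 change ± SE, adjusted p = 0.696 by edgeR).

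Hapln2 (chr3:88021750-88027583, minus strand), a link protein gene of the matrix around nodes of Ranvier, had 5.94, 7.12 and 5.48 CPM in LPS libraries and 7.12, 7.59 and 9.62 CPM in Saline libraries. LPS 2 and Saline 1 were level to 3 digits, so the groups all but touched, and the difference was -0.39 ± 0.156 (log2 change ± SE, adjusted p = 0.657 by edgeR). On the FPKM scale the groups overlapped, with LPS 2 at 4.40 and Saline 1 at 4.11. Opalin, a transmembrane glycoprotein gene of mature cells, was at -0.26 ± 0.142 and Enpp2, the gene of autotaxin, which makes lysophosphatidic acid, at -0.20 ± 0.0996. Without LPS 1, or without Saline 3, 0 genes of the set had lower values at an unadjusted p under 0.05, and without LPS 2 there were 8. The share of all rows at that level in these fits is not given here, so the 8 cannot be read against it. Trf and Enpp2 are also made by the choroid plexus. Of 7 choroid plexus markers, Kl was measured here, at 3.24 to 4.44 CPM in LPS and 2.46 to 4.28 CPM in Saline libraries (0.17 ± 0.228), and the other 6, the defining gene Ttr among them, were not analysed here. The part of that tissue was not tested.

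**Figure D3:**
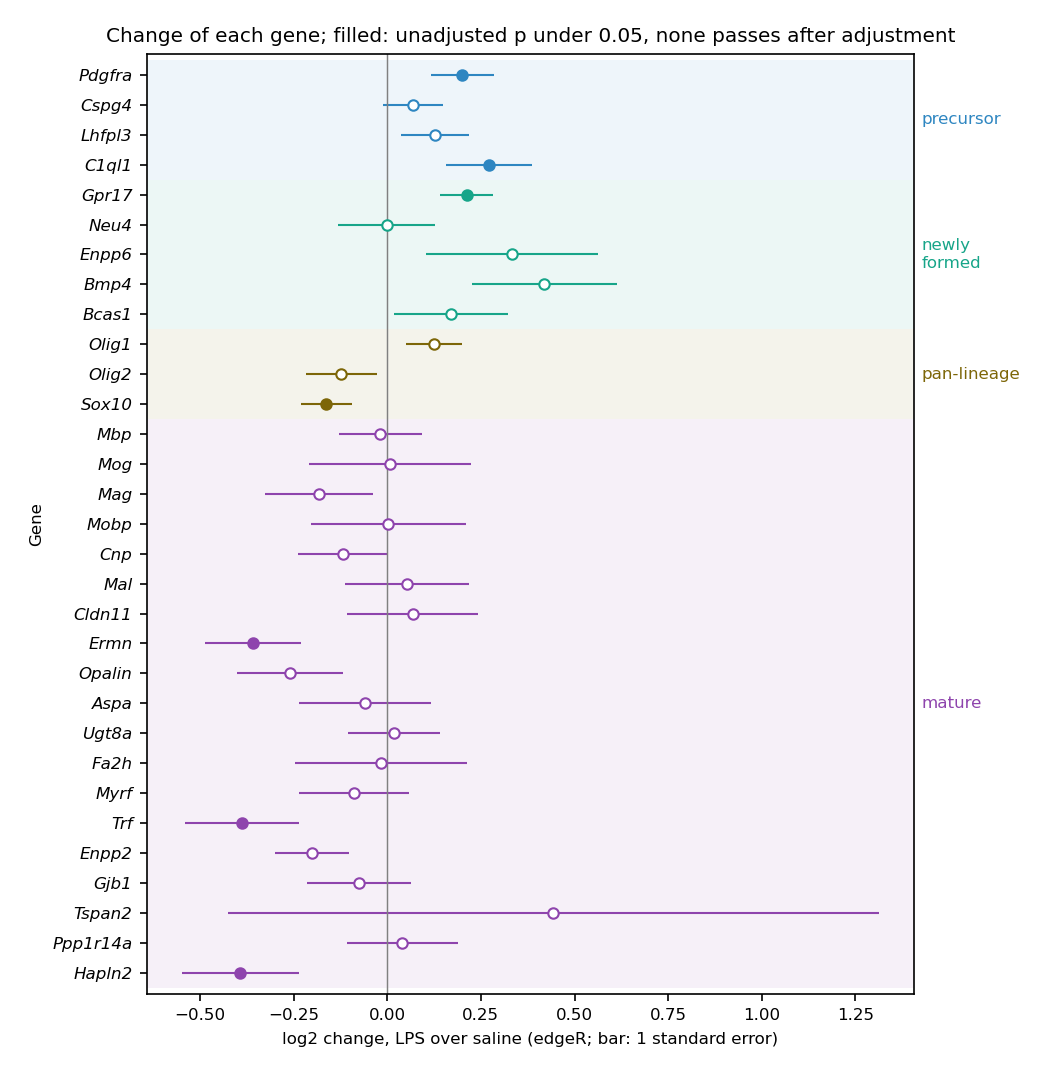
Log2 change of each gene, LPS over Saline, from edgeR with 1 standard error on each side, coloured by stage. The filled points are the 7 genes with an unadjusted p under 0.05, and Tspan2 has the widest error, 0.869.

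Tspan2 (chr3:102734529-102801513, plus strand), a tetraspanin gene of myelinating cells, was set by 1 library. It had 73.8, 106 and 79.4 CPM in LPS libraries and 10.005, 89.3 and 91.0 CPM in Saline libraries. The lowest of the other 5 libraries had 7.37 times the CPM of Saline 1 and 6.80 times its FPKM. The difference was 0.44 ± 0.869 (log2 change ± SE, adjusted p = 0.945 by edgeR), or -0.0638 without Saline 1. In the other 18 mature genes Saline 1 was at 0.668 to 1.08 times the mean of Saline 2 and Saline 3, against 0.111 times in Tspan2. A single library at least 4-fold below the lowest other one was found in 40 of the 12838 rows with a mean of at least 100 counts, 9 of them in Saline 1, and Tspan2 was the only gene of the set among them.

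**Figure D4:**
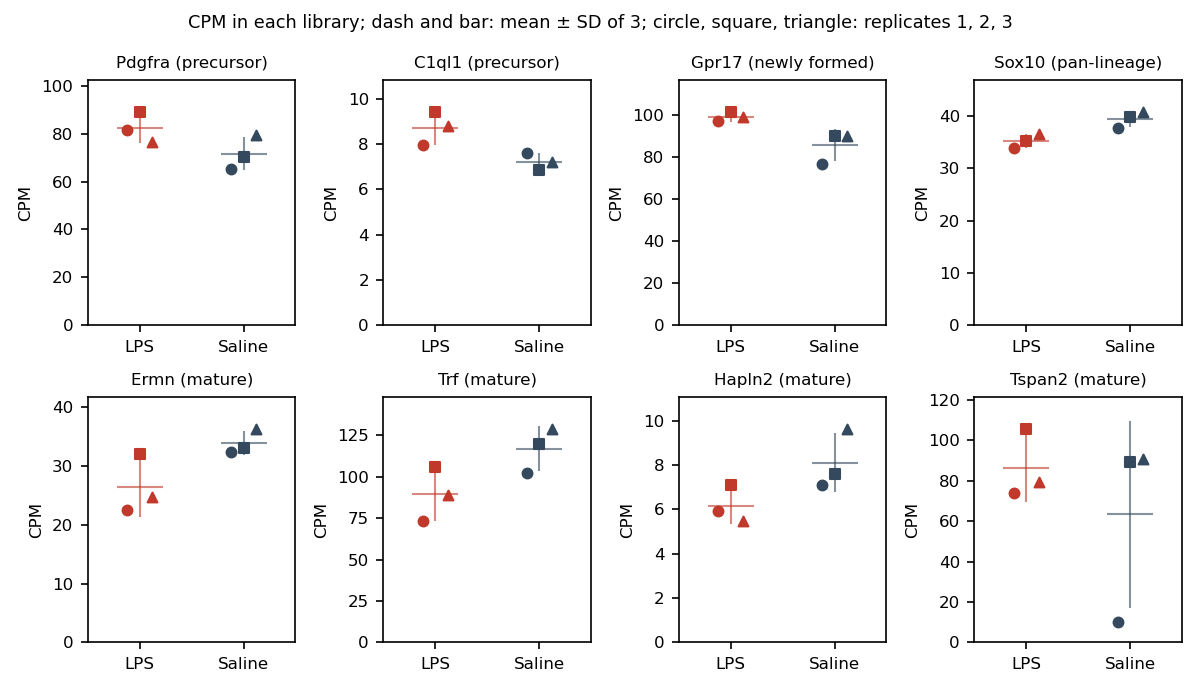
CPM in each library for the 7 genes with an unadjusted p under 0.05 and for Tspan2, LPS (red) left of Saline (dark blue), with mean ± SD of 3 libraries. The groups do not overlap in C1ql1, Gpr17, Sox10, Ermn and Hapln2, and the Saline group of Tspan2 spans 10.005 to 91.0 CPM.

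The mature level varied more from mouse to mouse than between the groups. LPS 2 was the highest LPS library in 18 of 19 mature genes and LPS 1 the lowest in 17, and Saline 1 was the lowest Saline library in 17. The mean log2 CPM of the 19 genes, relative to the Saline mean, was -0.26, 0.20 and -0.12 in LPS libraries and -0.27, 0.11 and 0.17 in Saline libraries. The median within-group SD on the log2 CPM scale was 0.219 for mature genes and 0.223 for newly formed genes, beside 0.106 for precursor genes, 0.104 for the transcription factors and 0.119 over all rows. The share of white matter in each dissection was not measured, and its part in the values was not tested.

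The stages were also set against each other within each library. The precursor level was 0.13, 0.23 and 0.13 in LPS libraries and -0.07, 0.00 and 0.07 in Saline libraries, without overlap. The newly formed level was 0.06, 0.40 and 0.20 in LPS libraries and -0.13, 0.03 and 0.10 in Saline libraries, with LPS 1 below Saline 3. The mature level minus that of the 9 precursor and newly formed genes was -0.35, -0.13 and -0.29 in LPS libraries and -0.16, 0.09 and 0.08 in Saline libraries, so that LPS 2 lay above Saline 1 and the groups overlapped. Without Tspan2, a choice made after its values were seen, that difference was -0.41, -0.19 and -0.34 in LPS libraries and -0.06, 0.04 and 0.03 in Saline libraries, without overlap. With medians over the genes in place of means, also chosen after seeing the data, it was -0.39, -0.16 and -0.33 in LPS libraries and -0.04, 0.01 and 0.02 in Saline libraries, again without overlap. In the edgeR fit, the mean log2 change of mature genes minus that of the 9 early genes was -0.28, and -0.35 to -0.23 with 1 library left out. Genes are not replicates, and the set was chosen with results of these data known, so no p is given.

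**Figure D5:**
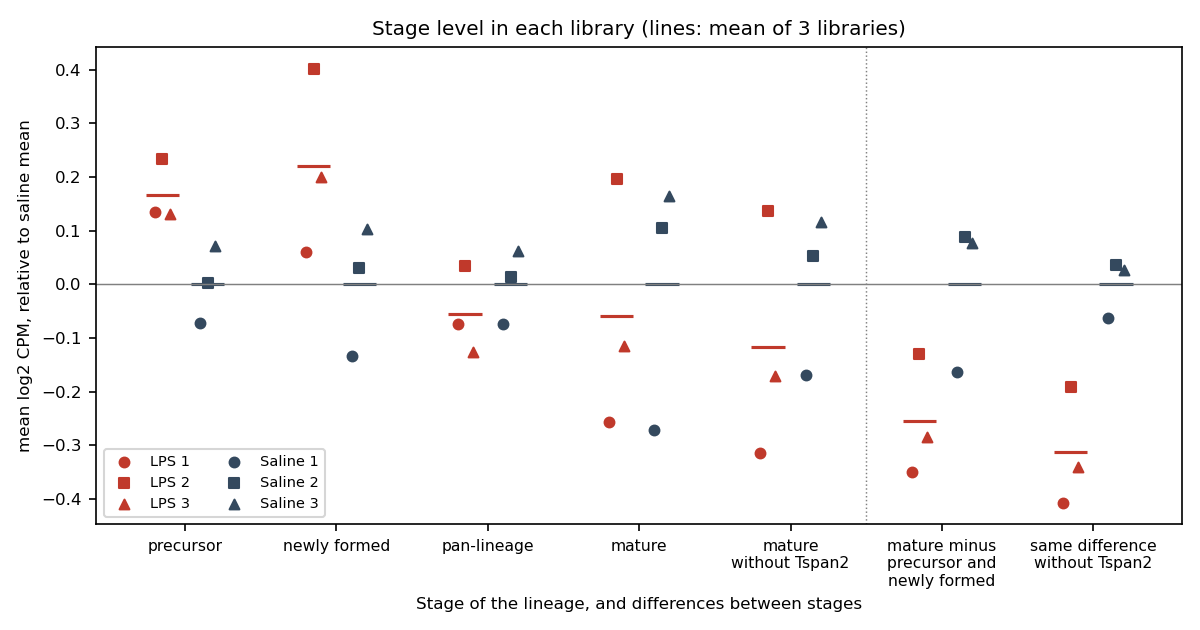
Mean log2 CPM of the genes of each stage in each library, relative to the mean of the Saline libraries, LPS (red) left of Saline (dark blue), with the mean of 3 as a line. Right of the dotted line is the mature level minus the level of precursor and newly formed genes, which overlaps between the groups with Tspan2 and does not without it.

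In further genes of the same lineage the groups overlapped in that difference. Of 35 further myelinating genes 33 were measured, 0 passed edgeR, 0 had higher and 5 lower values at an unadjusted p under 0.05, beside 3.63% and 3.54% of all rows, and the median was -0.02 in log2. Of 24 further precursor and newly formed genes 23 were measured, 0 passed, 2 had higher and 0 lower values at that level, beside the same 3.63% and 3.54%, and the median was 0.01. The level of the first list minus that of the second was -0.16, -0.05 and -0.03 in LPS libraries and -0.05, -0.05 and 0.10 in Saline libraries. Il33, an alarmin cytokine gene that mouse oligodendrocytes and astrocytes hold in the nucleus, had 17.4, 21.1 and 21.8 CPM in LPS libraries and 32.0, 32.5 and 26.3 CPM in Saline libraries. No LPS library reached a Saline library, and the difference was -0.59 ± 0.114 (log2 change ± SE, adjusted p = 0.107 by edgeR), with an adjusted p of 0.000853 by DESeq2 and of 0.0485 by edgeR without Saline 3. With 1 library left out, the log2 change of Il33 was -0.68 to -0.50, lowest without Saline 3. Sox8, a close relative of Sox10, had 53.8, 53.3 and 49.0 CPM in LPS libraries and 59.6, 66.9 and 61.3 CPM in Saline libraries, again with every LPS library below every Saline library, and stood at -0.27 ± 0.0688 (log2 change ± SE, adjusted p = 0.337 by edgeR). In the second list Cacng4, an AMPA receptor accessory subunit gene, stood at 0.24 ± 0.0744 (log2 change ± SE, adjusted p = 0.461 by edgeR) and Fyn, a kinase gene that acts in myelination, at 0.13 ± 0.0570 (log2 change ± SE, adjusted p = 0.696 by edgeR).

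Signals and regulators of the lineage held 1 called gene. Of 27 ligands, receptors and related genes 26 were measured, 0 passed edgeR, 4 had higher and 0 lower values at an unadjusted p under 0.05, beside 3.63% and 3.54% of all rows, and the median was -0.02 in log2. Pdgfa, the ligand of Pdgfra, was at -0.08 ± 0.0906. Adgrg1, an adhesion receptor gene that keeps precursors dividing and is also used by other glia, had 102, 113 and 110.4 CPM in LPS libraries and 85.8, 84.1 and 88.3 CPM in Saline libraries. The groups did not overlap, and the difference was 0.33 ± 0.0592 (log2 change ± SE, adjusted p = 0.0787 by edgeR), with an adjusted p of 0.00205 by DESeq2. Erbb4, a neuregulin receptor gene used mainly by interneurons in the cortex, was at 0.20 ± 0.0637 (log2 change ± SE, adjusted p = 0.470 by edgeR). Of 18 regulators of differentiation and of chromatin, 1 rose and 0 fell by edgeR, beside 0.0982% and 0.189% of all rows, with a median of 0.01. Hes5, a Notch target that holds back differentiation and is also an astrocyte gene, rose, with 20.7, 20.9 and 18.9 CPM in LPS libraries and 10.8, 11.5 and 9.96 CPM in Saline libraries and a difference of 0.91 ± 0.0952 (log2 change ± SE, adjusted p = 0.00424 by edgeR). Smad7, an inhibitor of TGF-beta and BMP signalling, was at -0.24 ± 0.0794 (log2 change ± SE, adjusted p = 0.516 by edgeR).

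The synthesis of cholesterol, a main lipid of myelin, and the axon side of the sheath were also read. All 22 cholesterol genes were measured, 0 passed edgeR, 0 had higher and 1 lower values at an unadjusted p under 0.05, beside 3.63% and 3.54% of all rows, and the median was 0.00 in log2. Fdft1, the squalene synthase gene, which overlaps Ctsb on the opposite strand, was at -0.15 ± 0.0741, and the sterol sensor gene Insig1 at -0.14 ± 0.0573 (log2 change ± SE, adjusted p = 0.690 by edgeR). Of 20 axonal genes of nodes and myelin contact 0 passed, and 17 had negative log2 changes, where 50.4% of all rows were positive. Of the 17, 2 had an unadjusted p under 0.05, beside 3.54% of all rows. The median of the 20 was -0.14, beside 0.00 over all rows. The neurofilament genes Nefl, at -0.19 ± 0.0614 (log2 change ± SE, adjusted p = 0.480 by edgeR), and Nefm, at -0.36 ± 0.116 (log2 change ± SE, adjusted p = 0.543 by edgeR), overlap each other on opposite strands. With 1 library left out, Nefm was at -0.49 to -0.26. The lowest value was that without Saline 3, with an adjusted p of 0.0135 by edgeR. Cntn2, an axonal adhesion gene of the region beside the node, was at -0.14 ± 0.0713.

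Markers of other cells held 0 genes called by edgeR, beside 0.288% of all rows, and 1 called by DESeq2, beside 0.983% of all rows. Of those measured, 0 were at 0. Values in parentheses are log2 changes ± SE. The 6 neuronal genes summed to 5666 to 5677 CPM in LPS and 5692 to 6302 CPM in Saline libraries (Snap25 -0.13 ± 0.0610, Map2 -0.14 ± 0.108). Snap25 was the largest part of that sum, with a mean of 2242 CPM for LPS and 2451 CPM for Saline. The neuronal median log2 change was -0.02, with 2 positive and 4 negative. With each gene weighted equally, as mean log2 CPM, the groups overlapped, since Saline 1 (0.08) was the highest library and Saline 3 (-0.07) the lowest. Of the 7 astrocyte genes, the glutamate transporter gene Slc1a2, singled out after its values were seen, had 3558, 3755 and 752 CPM in LPS libraries and 866, 966 and 3365 CPM in Saline libraries, and the other 6 summed to 1244 to 1390.1 CPM in LPS and 1316 to 1319 CPM in Saline libraries (Sox9 -0.31 ± 0.132, Gjb6 0.13 ± 0.0706). The 6 microglial genes summed to 329.9 to 353 CPM in LPS and 311 to 333 CPM in Saline libraries (Cx3cr1 1.504 ± 0.829), the 6 endothelial genes to 320.0 to 322 CPM in LPS and 319 to 333 CPM in Saline libraries (Cldn5 -0.19 ± 0.0892, Pecam1 0.14 ± 0.0784), and the 6 striatal genes to 122 to 132 CPM in LPS and 129 to 133 CPM in Saline libraries (Rgs9 0.35 ± 0.147, Drd1 0.32 ± 0.167). Of 5 Schwann cell genes 2 were measured, Prx at 0.06 ± 0.228 and Egr2, also an early response gene of cortical neurons, at -1.12 ± 0.212 (log2 change ± SE, adjusted p = 0.258 by edgeR), which is the one DESeq2 called and edgeR called without Saline 3 (adjusted p = 0.0135). With 1 library left out, the log2 change of Egr2 was -1.29 to -0.99, lowest without Saline 3.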

How the data were processed

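Polyadenylated RNA of 6 libraries, 1 mouse each, was sequenced. The authors deposited read counts, not normalized, and FPKM values in 1 table, the second scaled by length and depth. TopHat2 2.1, DESeq 1.10.1 and GRCm38 are named per the submitters' processing notes, without their roles. The sources used here give neither the counting program nor the annotation release. Gene positions and shared exon bases came from GENCODE M21 (GRCm38).

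The deposited counts went into edgeR 4.0.16 (quasi-likelihood, robust, TMM factors, treatment as the single term) in R 4.3.3. The filterByExpr step removed 0 of 14250 rows. Tests were two-sided, with Benjamini-Hochberg adjustment over all rows at 0.05. Each SE is the log2 change divided by the square root of its F. Log2 CPM used a prior count of 2. Alternatives were DESeq2 1.42.0, limma-voom (limma 3.58.1), limma on log2(FPKM + 1) and log2(FPKM + 0.1), RLE factors, library size alone, no filter, rows averaging 50 counts or more, a threshold of 0.1, the replicate number as a block, and each library left out. Leaving out Tspan2, medians over genes, and the difference between further lists were added after seeing the data.

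The members, stages and lists were chosen with earlier results of these data known. All members were named, and of each accompanying list the 2 genes with the smallest p, every called gene and Pdgfa, Cntn2, Rgs5, Dcn and Ttr where measured, apart from a few genes that are not reported here. Replicates differed by more than sampling noise (chi-square per degree of freedom at least 32.1).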

Additional observations from a re-analysis of the deposited data

How the results depend on the processing

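No gene of the set was called under the 15 alternatives run for each gene, and 18 of the 31 genes, Pdgfra, C1ql1, Gpr17, Sox10, Ermn, Trf and Hapln2 included, had the same sign of log2 change in all of them. With 1 library left out, 14 to 20 rows of the whole table were higher and 22 to 35 lower. Genes of the set at an unadjusted p under 0.05 then numbered 0 to 4 higher (0 without Saline 1) and 0 to 8 lower (0 without LPS 1 or Saline 3), and the precursor median was 0.096 to 0.22. Rows higher and lower were 60 and 80 with DESeq2. Rows higher were 23 at a threshold of 0.1 and 7 with FPKM and a pseudocount of 1. With a pseudocount of 0.1 they were 5 higher and 10 lower, and 1 gene of the set was higher and 2 lower at an unadjusted p under 0.05. For the counts at an unadjusted p under 0.05 in these alternatives, the share of all rows is not given here. In the further lists the mature minus early difference was -0.085. The replicate numbers share no stated source, and same-numbered libraries had correlations of -0.027, 0.025 and 0.042 in their deviations. With the replicate block edgeR called 10 rows higher and 21 lower and 0 genes of the set. The cause of these shifts was not tested.

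Signs changed in 13 of the 31 genes and in Pdgfa, Kl and Prx. With the replicate block, log2 changes were 0.0022 for Neu4, -0.013 for Mog and -0.0083 for Mobp, with library size alone 0.0031 for Neu4, and with limma-voom 0.0074 for Neu4, -0.018 for Mog and -0.0083 for Mobp. With FPKM and a pseudocount of 1 they were -0.019 for Mog, -0.017 for Mobp and -0.0043 for Ugt8a, and with 0.1 -0.021, -0.017 and -0.0059. Ranges with 1 library left out were -0.078 to 0.10 for Neu4, -0.12 to 0.052 for Mbp, -0.21 to 0.18 for Mog, -0.18 to 0.15 for Mobp, -0.094 to 0.17 for Mal, -0.11 to 0.20 for Cldn11, -0.23 to 0.052 for Aspa, -0.15 to 0.097 for Ugt8a, -0.28 to 0.13 for Fa2h, -0.25 to 0.035 for Myrf, -0.22 to 0.0075 for Gjb1, -0.064 to 0.80 for Tspan2, -0.072 to 0.12 for Ppp1r14a, -0.15 to 0.011 for Pdgfa, -0.016 to 0.37 for Kl and -0.071 to 0.18 for Prx. The SE of a log2 change, 0.0685 to 0.869 over the 31 genes, limits the precision at 3 mice per group.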
